A study of Temnothorax rugatulus with 32 samples.

Results

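The fat body is the insect organ of storage, intermediary metabolism and secretion into the haemolymph, with functions that vertebrates divide between liver and adipose tissue. In queens of social insects it also makes yolk proteins and secreted defence proteins, while the brain draws on the haemolymph that bathes both organs. The 200 contigs described here were of moderate abundance in the fat body of the ant Temnothorax rugatulus and had far lower mean levels in its brain. This holds for the single contigs and not for every gene they belong to. They were taken from 228763 contigs of a de novo transcript assembly. The 100 contigs with the highest mean level in the fat body were set aside, a mean of at least 20 CPM (counts of a contig per 1000000 counts of its library) in the fat body was required, and 5166 contigs met both conditions. Of these, the 200 with the highest ratio of mean fat body CPM to mean brain CPM, with 0.1 CPM added to each mean, were kept.

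Brain and fat body came from the same 16 queens collected in the field, 8 labelled old and 8 labelled young, which gave 32 libraries in 4 groups of 8: old brain, old fat body, young brain and young fat body. The labels give no treatment and no age in years. Per the labels, the organs were dissected and each was kept and extracted on its own. Total counts were 13861667 to 33461227 per library. The reads of the brain of young queen Y-134 were joined from 2 lanes, and it had the highest total of all libraries. A dissected fat body can hold oenocytes, haemocytes, tracheae and adhering gut, and in whole organs fewer cells of a type and less RNA per cell cannot be told apart. Words naming neuronal genes matched 1 described contig, at 55.8 to 280 CPM in brains and 0.08 to 4.34 CPM in fat bodies, so the libraries carried their labelled tissue in this respect. Words naming storage and yolk proteins matched 2 described contigs, whose summed level of 52.4 to 5122 CPM in fat bodies overlapped the 154 to 669 CPM in brains. Muscle words matched 2 contigs, which summed to 0.712 to 27.7 CPM in fat bodies and 3.32 to 20.8 CPM in brains.

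The ratio that chose the contigs is given as a description, with no test. It ran from 3126 to 48.3 with a median of 106, and the first contig outside stood at 48.1. Over all 5166 contigs that met the abundance conditions the median ratio was 0.973, and over the 100 most abundant contigs it was 3.74, although 17 of those 100 had a ratio as high as the 200 contigs. Mean level in the fat body ran from 20.2 to 762 CPM with a median of 67.8 CPM, and mean level in the brain from 0 to 13.9 CPM with a median of 0.543 CPM. The abundance limits fell inside a continuous range: the last contig set aside and the next one had mean fat body levels of 875 and 874 CPM, and 104 contigs with a high enough ratio fell short of 20 CPM, the nearest at 19.8 CPM. The highest ratio belonged to an unnamed contig of 1564 bases with 417 CPM in the fat body and 0.0334 CPM in the brain. The next 2, also unnamed, had 136 and 121 CPM in the fat body and no count in any brain. With all contigs of their genes summed, the ratios were 1.99 and 1229. The 3 highest mean fat body levels were 762, 665 and 629 CPM, in unnamed contigs at ratio ranks 177, 161 and 107. Per length, the highest level was 606 CPM per kb, in the contig at ratio rank 37.

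**Figure D1:**
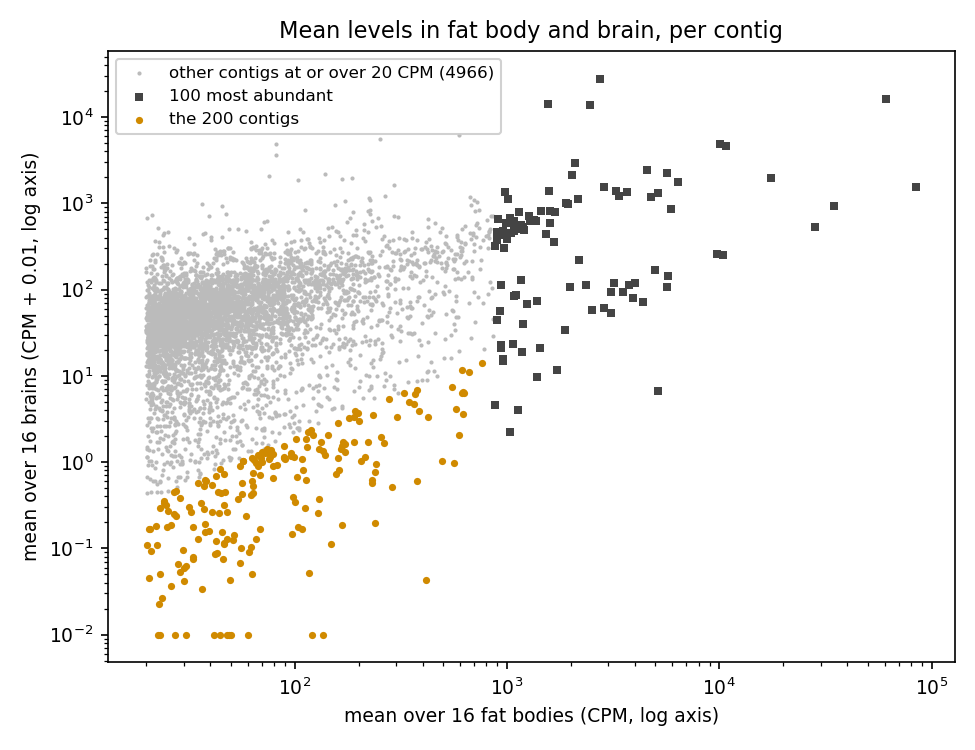
Mean CPM over 16 fat bodies (horizontal, log axis) against mean CPM over 16 brains plus 0.01 (vertical, log axis), with 1 point per contig. The 200 contigs lie along the lower edge, between 20.2 and 762 CPM in the fat body and at or under 13.9 CPM in the brain, which is how they were chosen.

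Contigs of one assembly gene share reads, so the 200 are fewer than 200 genes. Their names place them in 151 assembly genes of 128 components, with up to 5 in a gene, and 79 of them share an assembly gene with another of the 200. The same 151 genes hold 357 other contigs, of which 111 also reached 20 CPM in the fat body. The ratio of those 111 had a median of 8.44 and went down to 0.0863. When all contigs of a gene were summed, 27 of the 151 genes had a ratio under 5.

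Protein descriptions were available only for contigs that the authors listed as different with age, and 7 of the 200 had one. Another 15 shared an assembly gene with a described contig. The names belong to a few kinds of protein. Fatty acyl-CoA reductase 1-like, an enzyme that reduces activated fatty acids to fatty alcohols for waxes and hydrocarbon-like lipids, was the description of 1 contig and of the gene of 4 more. Fatty acid synthase-like, which builds fatty acid chains, described the gene of 2 contigs, and acyl-CoA synthetase family member 2, which activates fatty acids, the gene of 1. Aminopeptidase N-like, a peptidase that removes residues from the amino end of peptides and is abundant in the insect midgut, described 2 contigs and the gene of 1 more. Kunitz-type protease inhibitor AFAPI-I-like, a small inhibitor of serine proteases, described 2 contigs. Tropomyosin-1, which lies along actin filaments, described the gene of 1 contig. The contig sequences themselves were not used here. In the authors' deposited tables of tissue differences, 90 of the 200 are listed for young and 123 for old queens, all as higher in the fat body; 82 are in both tables and 69 in neither.

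In each queen's fat body the 200 contigs together took a few percent of all counts. Their summed level was 20780, 24058 and 27893 CPM (lowest, median and highest) in old fat bodies and 14705, 28211 and 38430 CPM in young ones. The old range lay inside the young range. The mean was 24182 ± 2326 CPM (SD, n = 8) in old and 27843 ± 7948 CPM (SD, n = 8) in young fat bodies, so the young queens differed more among themselves. The young fat body of Y-102 had the lowest sum and the most contigs without a count, 21 of 200, against 5 to 18 in the other fat bodies.

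**Figure D2:**
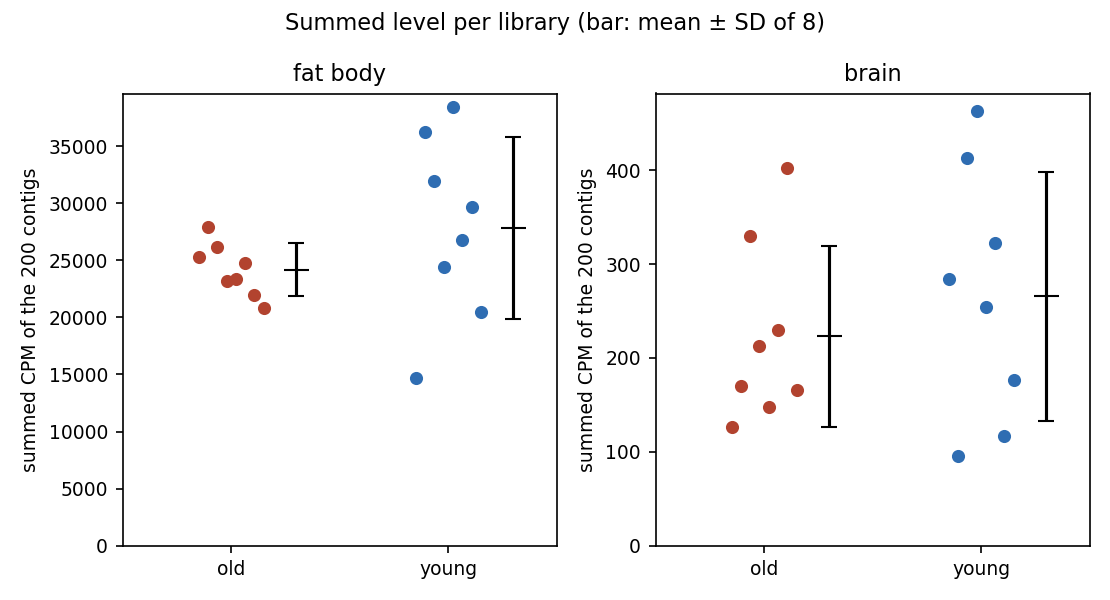
Summed CPM of the 200 contigs in each library, fat body on the left and brain on the right, each axis starting at 0, with 8 old and 8 young queens per panel and the mean ± SD beside the points. Old and young overlap in both tissues: 20780 to 27893 against 14705 to 38430 CPM in the fat body, and 126 to 403 against 95.04 to 463 CPM in the brain.

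Between old and young fat bodies, 4 of the 200 contigs were higher in old queens and 1 was lower. The 4 were both Kunitz-type protease inhibitor contigs and 2 contigs with no name; the contig that was lower has no name either. Of the 200, 187 had enough counts to be tested and 13 did not. Old and young were compared with edgeR's quasi-likelihood test over all 27664 contigs that passed the same filter, p-values being adjusted by Benjamini-Hochberg and called under 0.05; the rule that chose the contigs did not use age, but a contig that reached its minimum through one age group alone had to differ. Over all contigs tested, 0.452% were called higher in old queens and 0.195% lower, 0.647% in either direction, against 2.67% of the 187. At an unadjusted p under 0.05 there were 43 of the 187 (23.0%), 33 higher and 10 lower in old queens, from 32 assembly genes, against 13.3% of all contigs tested. Contigs of one gene share reads and are counted singly in these shares. A mean of 20 CPM was required of the 187 but not of all contigs tested, and no share was taken at like abundance. Without O-603, 0.535% of those tested among the 200 were called, against 0.187% of all contigs. Without Y-594 it was 0.532% against 0.189%. Levels in the following paragraphs are CPM scaled by TMM (trimmed mean of M-values) over the 16 fat bodies, the scale of the test.

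The Kunitz-type inhibitor contigs were higher in old queens. The shorter, TR68643c1_g2_i1 of 462 bases, had 30.9, 65.0 and 119 scaled CPM (lowest, median and highest) in old and 5.53, 16.3 and 30.5 scaled CPM in young fat bodies. Every old fat body was above every young one. With means of 67.3 scaled CPM in old and 16.6 scaled CPM in young queens, the contig met the 20 CPM minimum mainly through old queens. Its log2 difference, old minus young, was 2.02 ± 0.37 (SE; edgeR adjusted p = 0.0237). The longer, TR68643c1_g1_i2 of 1840 bases in the same assembly component, had 313, 508 and 799 scaled CPM in old and 40.6, 157 and 320 scaled CPM in young fat bodies. All 8 old values were above the young median, and the groups overlapped only between 313 and 320 scaled CPM. Its log2 difference was 1.67 ± 0.37 (SE; edgeR adjusted p = 0.0499), which lies at the threshold and passed it in 6 of 24 other settings (adjusted p 0.0011 to 0.107). With all 5 contigs of the component summed, the log2 difference was 1.54 ± 0.35 (SE; edgeR adjusted p = 0.0211). In brains the longer contig averaged 6.29 ± 5.20 scaled CPM in old and 6.59 ± 4.11 in young queens (SD, n = 8), with a log2 difference of -0.07 ± 0.48. The test of whether its age difference was larger in the fat body than in the brain gave a log2 value of 1.77 ± 0.61 (edgeR adjusted p = 0.231), so a difference between the organs was not established. The words of the protease and inhibitor list matched 20 tested contigs in all, of which 5 were higher in old fat bodies and 0 lower by the same test, with a median log2 difference of 1.24. These contigs are described only because the authors found them different with age in the same libraries, so their direction is no independent evidence; the same holds for the other word lists.

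Both unnamed contigs that were higher in old queens had wide spreads. Their young medians were under 20 scaled CPM, and both met the 20 CPM minimum mainly through old queens. Their age differences are thus not independent of the rule. TR72024c1_g1_i1 had 65.7, 215 and 566 scaled CPM in old and 1.69, 16.2 and 71.3 scaled CPM in young fat bodies. All 8 old values lay above the young median, and only the highest young queen reached into the old range. The log2 difference was 3.45 ± 0.63 (SE; edgeR adjusted p = 0.024). TR74819c1_g2_i3 had 11.7, 178 and 560 scaled CPM in old and 3.75, 13.1 and 35.8 scaled CPM in young fat bodies. Old queen O-426 was the one old value below the young median. The log2 difference was 3.74 ± 0.70 (SE; edgeR adjusted p = 0.0255). A second contig of the gene of TR72024c1_g1_i1 had a log2 difference of 2.25 ± 0.68 and did not pass (edgeR adjusted p = 0.13). A second contig of the gene of TR74819c1_g2_i3 had 1.40 ± 0.999 (edgeR adjusted p = 0.629), with 0 scaled CPM in the one old fat body, O-469, where the first was highest. With all contigs of the component summed, log2 differences were 2.95 ± 0.56 (edgeR adjusted p = 0.0104) for the former and 2.44 ± 0.57 (edgeR adjusted p = 0.0238) for the latter.

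The contig that was lower in old queens, TR73546c1_g1_i8, was nearly absent from all 8 of them. It had 0, 0 and 0.139 scaled CPM in old fat bodies, 5 counts in all, and 0.467, 28.3 and 442 scaled CPM in young ones, 16053 counts in all. It thus reached the minimum of 20 CPM, a mean over all fat bodies, through young queens alone (means of 0.024 CPM in old queens and 86.8 CPM in young queens), so a difference between the ages was a condition of its being among the 200. The groups did not overlap; Y-361 alone held 67.8% of the contig's CPM summed over the 16 fat bodies. The fitted log2 difference was -11.26 ± 1.59 (SE; edgeR adjusted p = 0.00634), and -9.75 without Y-361; with so few old counts its size depends on the small prior count that the fit adds. It did not pass with limma-voom (adjusted p = 0.305). The 8 contigs of its component summed had a log2 difference of -2.96 ± 0.65 (edgeR adjusted p = 0.0172). Its traces in brains were 0 to 2.73 CPM in old and 0 to 0.294 CPM in young queens, too few counts for a test of age there. Of the 191 contigs tested for a difference of the age effect between fat body and brain, it was the one that passed (log2 value -14.7 ± 1.93; edgeR adjusted p = 0.00039). Of all 48253 contigs tested in this way 0.0414% were called lower, 0.184% higher and 0.226% in either direction. This fit took the 2 organs of a queen as separate units, although they share her number. With the queen as a replicate block, the value was -12.7 ± 2.14 and no longer passed (edgeR adjusted p = 0.0574), nor did it with limma-voom (adjusted p = 0.182). The fit with the block called 0.00414% of all contigs in either direction.

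**Figure D3:**
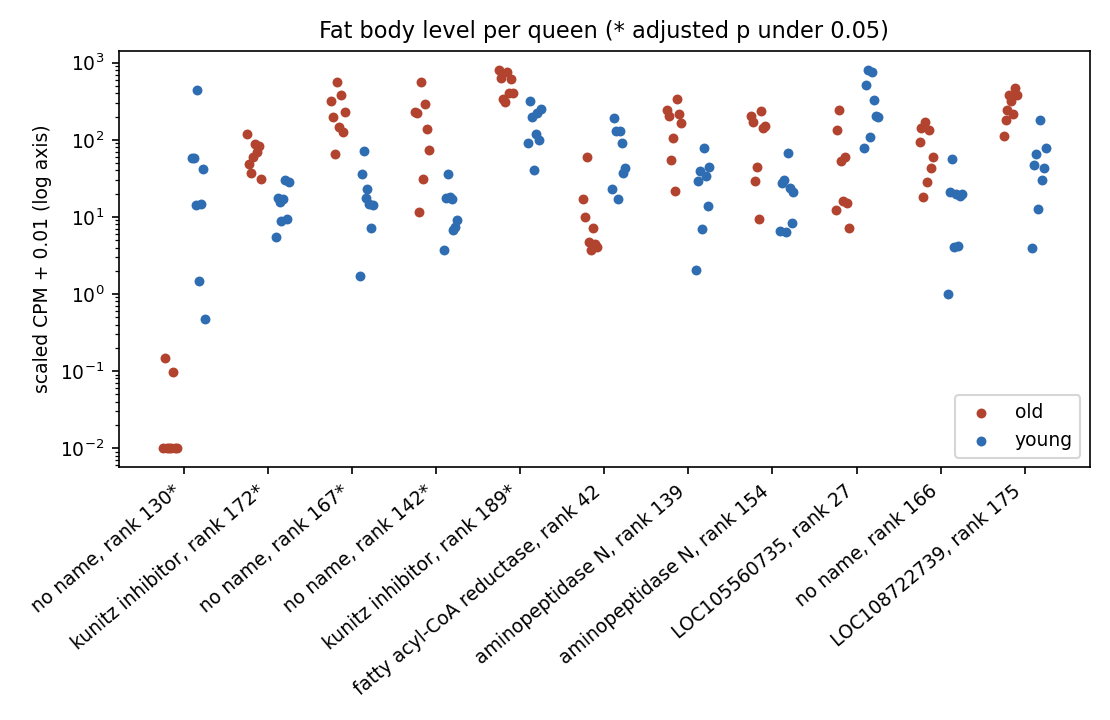
Scaled CPM plus 0.01 (log axis) in each of 8 old and 8 young fat bodies for the 5 contigs called (asterisk) and 6 more that have a description or stand in the authors' table of age differences. The unnamed contig at rank 130 lies at or under 0.139 scaled CPM in all old queens, while the other contigs have overlapping or adjoining ranges, as for the Kunitz-type inhibitor at rank 172 with 30.9 scaled CPM in the lowest old and 30.5 scaled CPM in the highest young queen.

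The other named contigs did not pass the test, and their values are given without a call. Fatty acyl-CoA reductase 1-like (TR71712c6_g1_i8) had 3.71, 5.92 and 60.4 scaled CPM in old and 16.9, 66.8 and 190 in young fat bodies. All 8 old values were below the young median, and O-426 was the highest of the old. The log2 difference was -2.57 ± 0.70 (edgeR adjusted p = 0.099). The other 4 contigs of its gene also had values below 0, from -0.50 to -1.56, and the 5 together summed to 133, 311 and 732 scaled CPM in old and 282, 720 and 1625 in young fat bodies. Oenocyte words, which include this enzyme, matched 7 contigs, of which 6 were tested and 2 were higher and 0 lower in old queens. They summed to 32.3 to 112 CPM in old and 37.0 to 244 CPM in young fat bodies; the part of oenocytes in these values was not tested. Of the 23 tested contigs matched by the words of lipid metabolism, 4 were higher and 1 lower in old fat bodies. The fatty acid synthase-like gene's 2 contigs had log2 differences of 0.04 and -0.35 (edgeR adjusted p = 0.991 and 0.932), and the contig of the acyl-CoA synthetase gene had 1.48 ± 0.55 (edgeR adjusted p = 0.232). The whole acyl-CoA synthetase component summed passed, at 0.91 ± 0.24 (edgeR adjusted p = 0.0394). Those of the reductase (-1.13 ± 0.44, edgeR adjusted p = 0.13) and the synthase (-0.33 ± 0.54, edgeR adjusted p = 0.768) did not.

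The aminopeptidase N-like contig TR75172c5_g2_i4 had 21.4, 183 and 338 scaled CPM in old and 2.06, 31.3 and 78.3 in young fat bodies, with a log2 difference of 2.44 ± 0.64 (edgeR adjusted p = 0.0911). TR75172c5_g2_i1, from the same gene, had 9.42, 147 and 235 scaled CPM in old and 6.33, 22.2 and 66.7 in young fat bodies (log2 difference 2.38 ± 0.64, edgeR adjusted p = 0.0962). In both, 7 of 8 old values were above the young median, and O-482 was below it. The third contig of the gene had a log2 difference of 1.47 (edgeR adjusted p = 0.284), and the whole component summed 2.04 ± 0.61 (edgeR adjusted p = 0.0597). Words naming gut and Malpighian tubule genes, aminopeptidase N among them, matched 9 described contigs, of which 6 were tested and 0 passed, with a median log2 difference of 2.17. Their summed level was 160 to 1473 CPM in old fat bodies, 109 to 416 CPM in young ones and 65.7 to 102.1 CPM in brains. The part of adhering gut in these values was not tested. An uncharacterized protein gene (LOC105560735) had 3 of the 200 contigs, all with values below 0, from -1.66 to -2.47. They summed to 21.0, 83.0 and 377 scaled CPM in old and 133, 463 and 1346 in young fat bodies. None passed singly (lowest edgeR adjusted p = 0.132), but the whole component summed did, at -1.93 ± 0.51 (edgeR adjusted p = 0.0364). The contig of another uncharacterized protein (LOC108722739) had 113, 283 and 465 scaled CPM in old and 3.96, 45.0 and 180 in young fat bodies (log2 difference 2.32 ± 0.57, edgeR adjusted p = 0.0696). Its whole component summed passed, at 2.09 ± 0.50 (edgeR adjusted p = 0.0247). A contig of the gene of kinase D-interacting substrate of 220 kDa, a membrane scaffold protein, had 6.12, 61.3 and 125 scaled CPM in old and 0, 1.39 and 42.1 in young fat bodies (log2 difference 2.61 ± 1.33, edgeR adjusted p = 0.424). The whole component of this gene summed passed, at 0.64 ± 0.18 (edgeR adjusted p = 0.0427). The contig of the leucine-rich repeat-containing protein 15-like gene had a log2 difference of 0.69 ± 0.29 (edgeR adjusted p = 0.299). With its whole component summed, the value was 0.77 ± 0.25 and did not pass (edgeR adjusted p = 0.08).

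In the authors' deposited table of age differences in the fat body 9 of the 200 contigs are listed, 7 as higher and 2 as lower in old queens. All 9 had the same direction by edgeR on the same counts, and 3 of the 9 passed. Of all contigs tested, 3.17% are listed in that table. None of the 200 is listed in the authors' deposited table of age differences in the brain. Run on these libraries, DESeq2 called 12 contigs higher and 6 lower in old queens (9.63% of the 187, against 5.31% of all contigs tested), and limma-voom called 8 and 2 (5.35% against 1.32%). With all 32 libraries in 1 fit, edgeR called 8 higher and 6 lower (7.33% of 191 tested, against 4.42% of all contigs). With no TMM factor it called 6 and 3 (4.81% of 187, against 3.54%), and with no count filter 2 and 1 (1.5% of 200, against 0.0203%). All 5 edgeR calls were among those of DESeq2 and 4 among those of limma-voom.

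Taken as a whole the 200 contigs had no common direction with age. Of the 187 tested, 110 had a positive and 77 a negative log2 difference, and the median was 0.18 against 0.01 over all contigs tested. With library totals and no TMM factor the median over all contigs moved to -0.29 and that of the 187 to -0.12, and the split turned to 87 positive and 100 negative, so the split follows the scaling while the distance between the medians stayed similar. The spread was wider than for other contigs: 33.7% of the 187 differed by at least 1 on the log2 scale in either direction, against 16.0% of all contigs tested. Values of the old queens lay wholly above those of the young in 3 contigs (1.60% of the 187, against 0.304% of all tested) and wholly below in 1 (0.535%, against 0.188%). These shares and the wider spread are not independent of the rule. A contig with a mean under 20 CPM in one age group reached the minimum only through the other. Besides the shorter Kunitz-type contig and TR73546c1_g1_i8, the contigs without overlap were the unnamed ones at ratio ranks 61 and 99. The former had 44.0, 62.5 and 90.7 scaled CPM in old and 0.0431, 0.429 and 41.1 in young fat bodies, and the latter 191, 275 and 362 in old and 0, 7.29 and 190 in young ones. Neither passed (edgeR adjusted p = 0.218 and 0.28). The latter belongs to an unnamed gene with 4 of the 200 contigs, which summed to 704, 947 and 1273 scaled CPM in old and 5.07, 154 and 979 in young fat bodies; all 4 had log2 differences above 0 and none passed (lowest edgeR adjusted p = 0.189). Another unnamed gene with 5 of the 200 contigs summed to 35.2, 266 and 591 scaled CPM in old and 2.12, 61.4 and 192 in young fat bodies; all 5 were above 0 and none passed (lowest edgeR adjusted p = 0.276).

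Many of the 200 contigs varied widely among queens, within each age group as well. The median coefficient of variation of scaled CPM over the 16 fat bodies was 0.763. At least 1 fat body was under 0.5 CPM for 65 of the 200, at least 4 fat bodies for 36, and at least 8 for 19. For 23 contigs more than 50% of the CPM summed over 16 fat bodies came from 1 queen, who was Y-361 for 11 of them and O-829 for 3, and 11 of the 23 were too sparse in the other queens to be tested for age. Without its own highest fat body, each contig's mean and ratio still met both conditions in 150 of 200 cases, and the ratio fell under 5 in 4. The fat body was above the brain of the same queen in all 16 queens for 139 contigs and in fewer than 12 queens for 23.

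To see which contigs shared a pattern over the 16 queens, log2(CPM + 1) in the fat bodies was clustered by correlation (average linkage, mean correlation of at least 0.8). This gave 8 sets of 7 or more contigs, which hold 84 of the 200. The sets were formed from these values, so they are described and not tested. Set 2 varied widely among queens of both age groups. Its 14 contigs from 14 assembly genes, one of them the tropomyosin-1 gene, summed to 18.3 CPM in Y-134, 30.5 CPM in O-189, 49.3 CPM in Y-453 and 85.9 CPM in O-829, and to 5357 CPM in O-482, 5920 CPM in Y-361 and 6042 CPM in Y-503. Low and high queens were found in both age groups, around medians of 733 CPM (old) and 4078 CPM (young). All 14 contigs had log2 differences below 0, with a median of -1.33, and none had an unadjusted p under 0.05. The tropomyosin contig itself had 0, 7.35 and 105 scaled CPM in old and 0, 84.9 and 313 in young fat bodies.

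Set 5 was nearly confined to 1 queen. Its 9 contigs, from 9 components, summed to 8352 CPM in the fat body of Y-361, 206 CPM in that of Y-594, and 0.542 to 52.9 CPM in the other 14. Set 1, of 15 contigs from 12 genes, was lowest in Y-102 with 46.2 CPM and in Y-361 with 312 CPM, and stood at 667, 1368 and 1716 CPM in old fat bodies; 3 of its 15 contigs had an unadjusted p under 0.05 and none passed. Set 6 joined 3 contigs of the fatty acyl-CoA reductase gene, the 3 of uncharacterized LOC105560735, a second contig of the gene with the highest ratio and 1 more. Its sum was 111, 337 and 1079 CPM in old fat bodies. In young ones it had a median of 1314 CPM and was highest in Y-453, at 2984 CPM, followed by Y-134 and Y-333. Set 8 held TR72024c1_g1_i1, TR74819c1_g2_i3 and 5 further contigs, all with values above 0 and a median of 2.25, and summed to 123, 634 and 1455 CPM in old fat bodies and to 10.2, 93.3 and 338 CPM in those of young queens. Sets 3, 4 and 7, of 13, 11 and 7 contigs, were present in every queen, at 151 CPM or more in sum. Both fatty acid synthase-like contigs were in set 3.

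**Figure D4:**
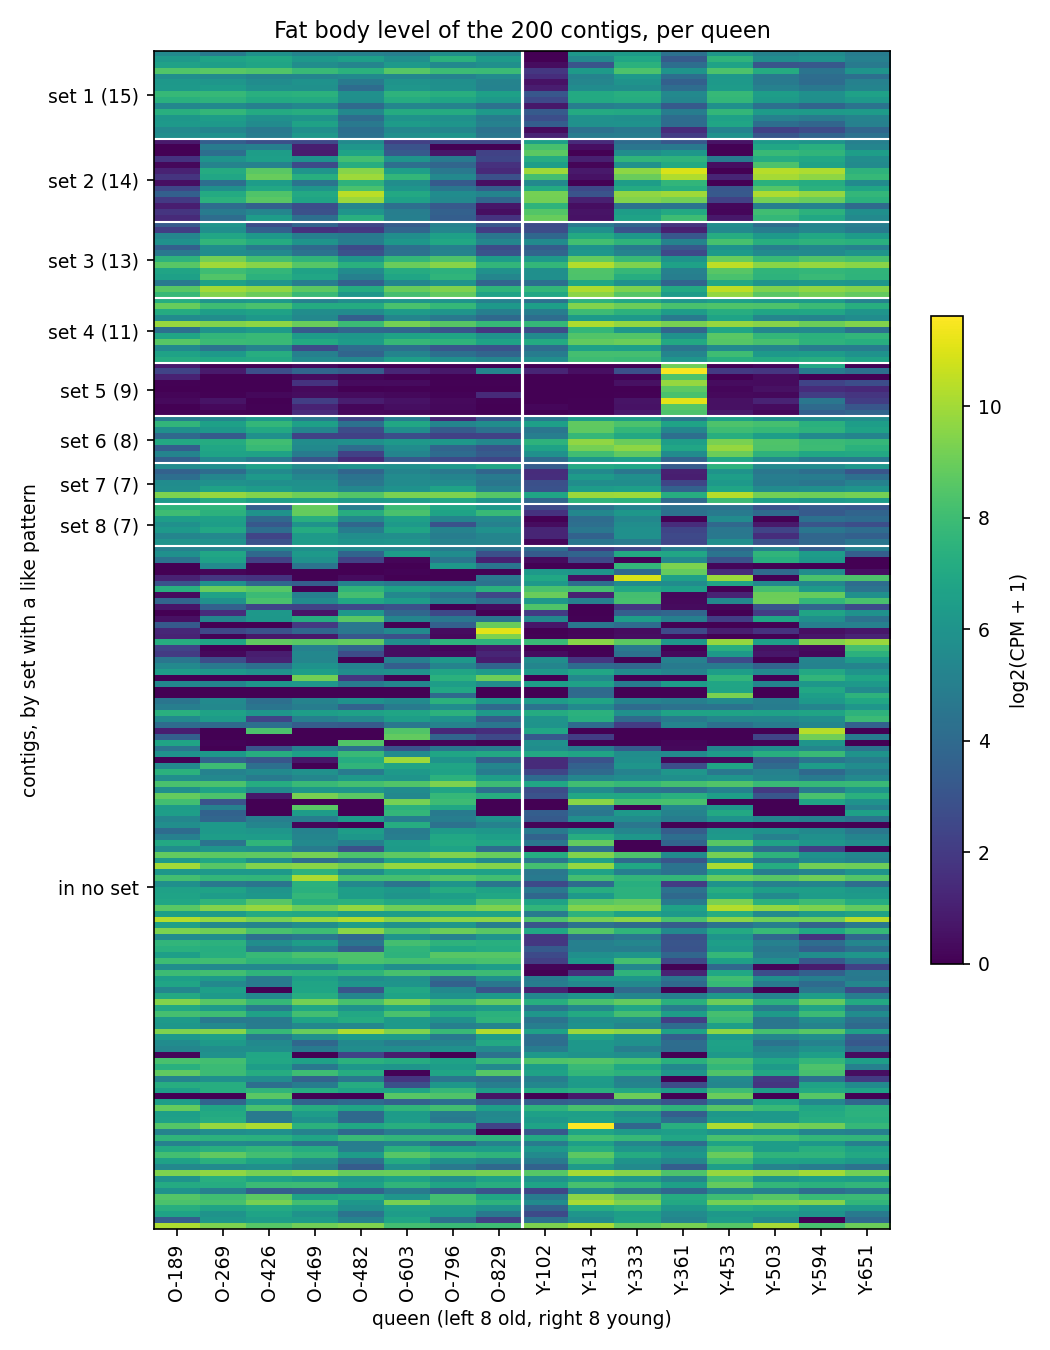
Fat body level of the 200 contigs as log2(CPM + 1), with 1 row per contig grouped by set and 1 column per queen, 8 old on the left and 8 young on the right. Set 5 is bright only in Y-361, set 2 is dark in O-189, O-829, Y-134 and Y-453, and many contigs in no set are near 0 in some queens and high in others.

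In some components different queens held different contigs. An unnamed gene with 5 of the 200 contigs, all 7224 to 7265 bases long, summed to 194 to 1113 CPM in every fat body, yet up to 4 of the 5 were under 0.5 CPM in a given queen. In O-469 the contig at ratio rank 163 had 562 CPM and in Y-503 the contig at rank 104 had 288 CPM, with the other 4 under 0.5 CPM in both queens, and in Y-453 the contig at rank 192 had 613 CPM. A pair of unnamed contigs of equal length, 883 bases, in one component, from 2 assembly genes, also changed places in one queen: the one at rank 129 had 330 CPM in Y-361 and at most 1.18 CPM in any other queen, while the one at rank 81 had 0.18 CPM in Y-361 and up to 517 CPM elsewhere. The pair together was nearly absent from O-189, Y-134 and Y-453, where the one at rank 81 had 8, 27 and 32 counts and the one at rank 129 had 35, 0 and 0. With counts summed per component, 124 components holding at least 1 of the 200 were tested, and 8 were higher and 5 lower in old queens, 10.5% of them, against 5.66% of all components. A component also holds contigs that are not among the 200.

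In brains the 200 contigs left traces. Their summed level was 126, 191 and 403 CPM (lowest, median and highest) in old brains and 95.04, 268.9 and 463 CPM in young ones, with means of 223 ± 96.4 and 266 ± 133 CPM (SD, n = 8), which overlap. As a share of the same queen's fat body sum, this was 0.497% to 1.84% in old and 0.262% to 1.93% in young queens, lowest in Y-134, whose brain had the deepest library, and highest in Y-102, whose fat body sum was the lowest. Per brain, 49 to 85 of the 200 had no count. Over all 16 brains, 12 contigs had no count, which allows up to 0.00749 CPM in the pooled 400794965 counts (3 counts, counting error only), although the same 12 averaged 22.8 to 136 CPM in the fat body. A contig without counts does not mean a gene absent from brains, since reads are shared out among like contigs. With all contigs of a gene summed, the ratios for the genes of these 12 ran from 0.192 to 1229. Another 63 contigs were seen in all 16 brains, 99 in 5 to 15 and 26 in 1 to 4.

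The traces were led by contigs abundant in the fat body, which the rule in part fixed. A ratio of at least 48.3 bounds the brain mean of each contig by its fat body mean. The highest mean brain level was 13.9 CPM, in the unnamed contig that was also highest in the fat body, with 3.53, 10.1 and 47.5 CPM over the 16 brains. The next were at ratio ranks 187 and 161, with 11.7 and 11.2 CPM on average. The 10 highest held 33.9% of the summed brain level, and the longer Kunitz-type inhibitor contig was among them at 6.23 CPM. Across the 200 contigs, the rank correlation between a brain and the same queen's fat body was 0.397 to 0.570 with a median of 0.527, against a median of 0.426 for fat bodies of other queens, and 7 of 16 brains ranked closest to their own queen's fat body. For the 100 most abundant contigs the medians were 0.359 and 0.311, and 3 of 16 brains ranked closest to their own. These are correlations across contigs that share libraries and assembly genes, and are given as descriptions. The rule bounded brain by fat body level in the 200 only, so their values are not comparable with those of the 100 most abundant.

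Differences among queens in the fat body were followed only in part by their brains. Among the 104 contigs with a mean of at least 0.5 CPM in brains, deviations from the age group mean correlated at 0.00 to 0.55 (median 0.27) between the organs of one queen, and at a median of -0.01 between organs of different queens; 10 of 16 brains matched their own fat body best. Deviations of a contig sum to 0 within an age group, so a match within queens lowers the values between queens of that age. The median of -0.01 is therefore no free baseline. Of the 188 contigs seen in any brain, 23 (12.2%) were highest in the brain and in the fat body of the same queen, and 9 of these were among the 23 contigs found mostly in 1 fat body. One queen in 16 is 6.25%, but this is no chance rate, since the highest queen was not evenly spread. Y-361 held most of 11 of those 23 contigs and also had the highest brain sum, 463 CPM. Contigs of one gene are counted singly here. Sums over the sets varied less among brains than among fat bodies. Contigs were put in a set because they moved together over the fat bodies, not the brains. The choice of sets thus in part fixed this, and the ranges below are descriptions. Set 2 ranged over 330-fold among fat bodies, from 18.3 to 6042 CPM, and over 6.27-fold among brains, from 4.45 to 27.9 CPM. Its brain level was therefore 41.0% of the fat body level in O-189 and 0.116% in Y-503. Set 3 was at 7.74 to 31.1 CPM in brains and 507 to 5654 CPM in fat bodies. Brain sums ranged most in set 8, 52.7-fold against 143-fold in fat bodies, and in set 5, 40.7-fold; in the other 6 sets they ranged 2.85-fold to 7.57-fold.

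For set 5 the order of the organs was reversed in some queens. Its 9 contigs summed to 8.73 CPM in the brain of Y-361 against 8352 CPM in her fat body, but to 15.2 CPM in the brain of O-269 against 1.65 CPM in her fat body, and to 12.2 CPM in that of O-796 against 1.32 CPM. In 4 of 16 queens the brain sum was above the fat body sum. In the other 7 sets the brain sum was below the fat body sum in all 16 queens. The size of the excess of set 5 in the fat body thus rests mainly on the library of Y-361. Fat body was above brain in other queens too, as in Y-594 (206 against 7.44 CPM). Without each contig's own highest fat body, the ratio fell under 5 in 4 of the 9.

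**Figure D5:**
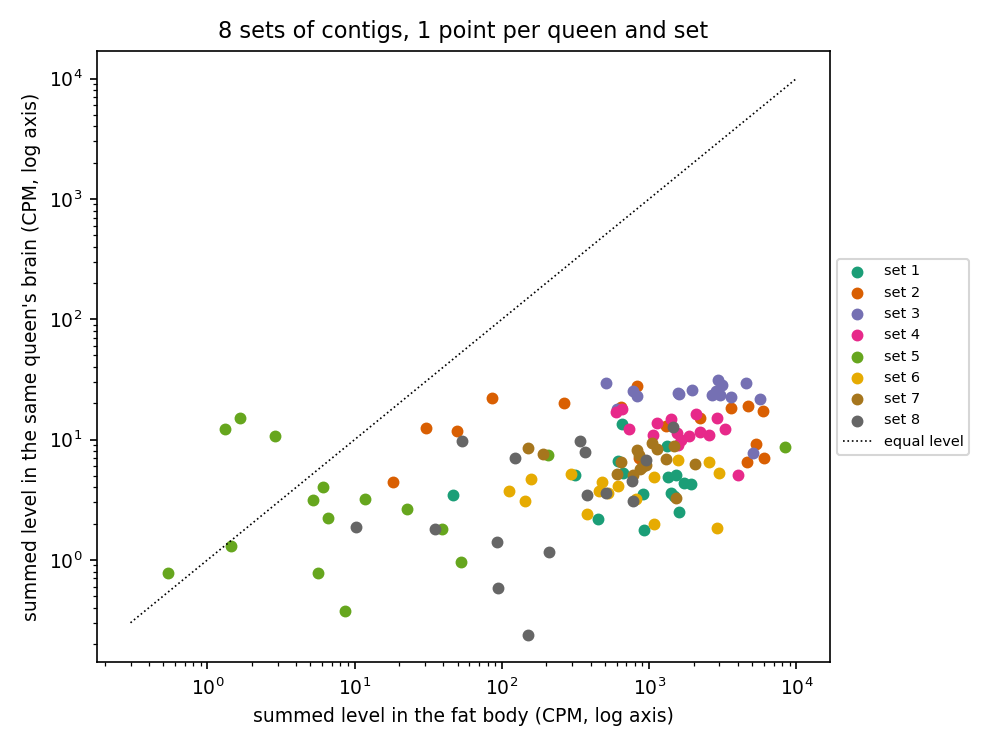
Summed CPM of each of the 8 sets in a queen's fat body (horizontal, log axis) and in her brain (vertical, log axis), with 1 point per queen and set and a dotted line where both are equal. Brain sums stay at or under 31.1 CPM while fat body sums run from 0.542 to 8352 CPM, and the 4 points above the line belong to set 5.

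None of the 200 contigs was called different with age in the brain. Of the 200, 93 had enough counts in brains to be tested. No contig of the 40572 tested in the brain was called by edgeR (0% in either direction), and the lowest adjusted p of the 93 was 0.905. At an unadjusted p under 0.05 there were 8 of the 93 (8.60%), against 4.64% of all contigs tested, and neither DESeq2, which called 0.466% of all contigs, nor limma-voom, which called 0%, called one of the 93; 5 of the 93 had no adjusted p in DESeq2. In old brains 47 of the 93 had the higher fitted level and in young brains 46, with a median log2 difference of 0.00 against 0.01 over all contigs. The other 107 had too few brain counts for a test at this depth.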

How the data were processed

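Per the file headers, the authors deposited 1 table of whole-number counts per contig of a de novo assembly for 32 libraries. Per the submitters' processing notes, RSEM 1.3.0 and DESeq2 1.2.10 were used besides Bowtie2, Bowtie, Trimmomatic 0.36 and FastQC 0.11.5; their order and the assembler were not given in the sources used here. RSEM shares reads between like contigs, so counts of contigs of one component can be split. The authors' deposited comparison tables hold their mean signal, log2 fold change, its error, test score, p-value and adjusted p-value, and supplied the protein descriptions. Totals were 13861667 to 33461227 counts.

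CPM used library totals. Age was tested with edgeR 4.0.16 (R 4.3.3): TMM, filterByExpr (minimum count 10, total 15), quasi-likelihood, Benjamini-Hochberg, threshold 0.05. The test was also run on simulated counts. These were drawn independently for each library, so that run cannot speak to the pairing of a queen's organs. DESeq2 1.42.0 and limma-voom (limma 3.58.1), other scalings, filters and left-out queens were alternatives. For age within an organ, each p-value measures the spread between queens. The main fit for the difference between organs took the 2 organs of a queen as separate units. Only the fit with the queen as replicate block paired them. Standard errors follow from the log2 difference and its F statistic. The 200 contigs and the word lists were chosen with earlier results of these data known. Contigs past the threshold and those with a protein name were named, the unnamed at most 2 per direction, and the 3 highest by ratio, fat body level and brain level given by rank; other contigs were chosen after their values were seen. Same-numbered organs come from one queen, per the labels.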

Additional observations from a re-analysis of the deposited data

Results flagged for a closer look

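In 6 of 26 groups of 8 libraries looked at for the named contigs and the summed levels, 1 library stood farther from the rest than Dixon's 95% limit allows. About 1 in 20 groups would be flagged among independent, normally distributed values. The groups here share queens, and all 6 flags are a highest library on an untransformed scale, so that rate is no baseline for them. TR73546c1_g1_i8 was at 442 scaled CPM in the young fat body of Y-361, against a median of 14.8 in the other 7. TR74819c1_g2_i3 was at 35.8 scaled CPM in Y-333, against 9.13. The fatty acyl-CoA reductase contig TR71712c6_g1_i8 was at 60.4 scaled CPM in the old fat body of O-426, against 4.72. The aminopeptidase N-like contig TR75172c5_g2_i1 was at 66.7 scaled CPM in Y-453, against 20.7, and the contig of uncharacterized LOC108722739 at 180 scaled CPM in the same queen, against 42.4. The unnamed contig at ratio rank 166 was at 56.5 scaled CPM in Y-333, against 18.6.

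In the main fit, the age difference of TR73546c1_g1_i8 also differed between the organs (log2 value -14.71 ± 1.93, edgeR adjusted p = 0.00039). That fit took the organs of a queen as separate units. With the queen as replicate block the contig did not pass (edgeR adjusted p = 0.0574), nor did it with limma-voom (adjusted p = 0.182), so a difference between the organs was not established. A difference between the ages in fat bodies was a condition of the contig's being chosen. Its brain counts were too few for a test of age there. The contig was lower in old than in young fat bodies, while 5 of 8 old brains had more of it than any young brain.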

How the results depend on the processing

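Age calls among the 200 contigs were few and moved with the setting: against 4 higher and 1 lower in old fat bodies, DESeq2 gave 12 and 6, limma-voom 8 and 2, all 32 libraries in 1 fit 8 and 6, component sums 8 and 5, no count filter 2 and 1, and no TMM factor 6 and 3. Leaving out 1 queen gave 0 to 4 higher and 1 to 2 lower: 0 without O-603 or Y-594, 1 without O-796, Y-134 or Y-503, and 2 lower without O-426. Without both Y-361 and O-829, chosen after seeing the data, 1 was higher. With other rules for picking 200 contigs, counted after seeing the data, 1 was higher with a minimum of 10 CPM, and 1 higher and 0 lower with medians. A minimum of 50 CPM kept 127 of the 200. For the difference between organs, 1 lower became 0 with the queen as replicate block and with limma-voom, and DESeq2 gave 4 higher and 3 lower; that paired fit changed no other call among the 200. Leaving out a queen gave 0 to 0 higher and 1 to 1 lower there, and 0 in the brain. Summed brain levels without 1 brain were 197 to 237 CPM in old and 237 to 290 CPM in young queens, contigs seen in every brain 63 to 72, and in any brain 186 to 188. Of 264 refits of single named contigs none reversed, 34 lost and 15 gained the call; the cause was not tested. At this depth, 107 of the 200 could not be tested in brains.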
